A study of Caenorhabditis elegans with 22 samples.

Results

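The oac genes of Caenorhabditis elegans are a family of genes named for the similarity of their products to bacterial O-acyltransferases. They were taken as every row of the count table whose symbol begins with oac and a number, which gave 56 of the 42048 genes in the table. Of these, 25 had enough reads to be tested, among 15310 genes tested in all. In worms held in 5% ethanol the family came to be dominated by 1 transcript, oac-14, which stood 4.10-fold above the control after 1 h, 66.5-fold after 4 h and 434.7-fold after 20 h. The summed level of the other members did not follow it. In ethanol this sum was 102 ± 5.27, 74.0 ± 2.02 and 75.6 ± 3.00 CPM at 1, 4 and 20 h (read counts scaled to the size of the library, SD, n = 3). In the controls of the same times it was higher, with 118.9 ± 7.97, 96.2 ± 4.05 and 131.0 ± 1.59 CPM (n = 3). Before exposure it was 107 ± 5.43 CPM (n = 4). The difference in this sum was not tested. The sum holds oac-46, with mean levels of 26.9, 19.9 and 20.5 CPM in ethanol and 50.7, 50.2 and 64.1 in the controls. It also holds oac-51, with 29.3 CPM in the 20 h controls and 0.137 in ethanol. The lower sum in ethanol therefore does not describe each of the other members.

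Proteins of this type cross the membrane several times and are thought to move an acyl group from a donor onto a hydroxyl group of an acceptor. In bacteria, related enzymes acetylate sugars of the cell surface and of secreted molecules. In the worm the best studied relatives lie outside the numbered family: nrf-6 and ndg-4, whose loss makes worms resistant to the nose contraction caused by fluoxetine and alters yolk transport to the embryo, rhy-1, a regulator of the hypoxia-inducible factor HIF-1, and bus-1, which affects the surface that bacteria bind to. The annotation used here gives no substrate for any numbered oac gene, so the members are described below by their pattern of expression.

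PolyA RNA was sequenced from whole worms of the N2 strain, the standard wild type, to ask how exposure to ethanol changes transcript levels. Worms synchronized by bleaching were raised at 20 °C on plates with E. coli OP50, and about 1500 per sample were washed into S-basal, a salt buffer without added food. The control groups were kept in 0% ethanol for 1, 4 or 20 h and the ethanol groups in 5% (v/v) ethanol for the same times, with 3 libraries in each group, and 4 libraries were made from worms at time zero. All groups shared the strain, the rearing and the bleach treatment, and all but time zero shared the buffer without food. The protocols place the worms in the third larval stage, while the title of the series names the fourth. Each sample pooled whole animals, so the tissue of origin of a transcript is not resolved, and fewer cells of a type cannot be told apart from less RNA per cell.

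The 22 libraries held 10908205 to 15302047 counts. Group mates differed most along 1 principal component, which carried 41.4% of their variance, and 6 libraries scored above 10 on it. The sign of this component is arbitrary. Scores ran from -41.6 (1 h control replicate 1) to 58.3 (20 h control replicate 1), so the spread was on both sides. Marker lists for intestine, epidermis, muscle, pharynx, neurons, germ line, sperm, oocytes and coelomocytes were detected in every group, and the vitellogenin list, known from adult hermaphrodites, already summed to 47063 to 72246 CPM at time zero. At 20 h in ethanol, several lists stood apart from the control. The epidermal list summed to 130.5 to 227 CPM against 1564 to 2111, with 3 of 6 genes lower, and the body wall muscle list to 1172 to 1547 against 4475 to 5316, with 5 of 5 lower. The sperm list summed to 91.3 to 104 CPM against 12.01 to 14.4, with 7 of 7 genes higher. Lower too at 20 h were 3 of 4 pharynx, 4 of 6 neuronal, 3 of 3 coelomocyte, 4 of 6 yolk and 4 of 4 tested early embryo genes, and 1 neuronal and 1 yolk gene were higher. The L4 and adult cuticle list summed to 78.2 to 177 CPM in ethanol against 884 to 1237, with 1 of 4 genes lower and 2 higher, and 3 of 7 intestinal genes were higher and 3 lower. At 4 h the intestinal list summed to 1571 to 1849 CPM in ethanol against 2418 to 2658, with 4 of 7 genes lower and 2 higher, and 4 of 7 sperm genes were higher. At that time the early embryo list summed to 11.3 to 14.3 CPM in ethanol against 47.7 to 62.3, with 4 of 4 tested genes lower. Of all genes tested, 17.1% were higher and 13.4% lower in ethanol at 4 h, and 25.0% and 28.1% at 20 h. No gene of the epidermal, muscle, sperm or intestinal list was at 0 in any group. Their part in the results below was not tested.

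All 56 members matched a protein-coding gene of the WBcel235 annotation, with coding lengths of 1431 to 2460 bases (median 2028). They lay on chromosomes I (15 members), II (6), IV (13), V (21) and X, which held oac-14 alone. Chromosome I had the fewest tested in proportion, 3 of 15, against 11 of 21 on V and 8 of 13 on IV. In 9 places members stood directly side by side, and these runs held 21 members. Of the 31 members that were not tested, 6 had no count in any library, and the highest total over all 22 libraries was 118 counts (oac-55). Of the 25 tested, 12 had fewer than 10 counts in at least 1 group, so folds of those members rest on few reads. The filter could be passed through libraries of any group. oac-3 passed it through ethanol libraries alone, and oac-5 through the 4 and 20 h controls alone. For such genes a difference between groups was favoured by the filter. The numbers called below, of members and of all genes, include genes of this kind.

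Before exposure the family was a low and broad set. At time zero all 56 members together reached 108 ± 5.15 CPM (SD, n = 4), of which oac-46 made up 30.8% and oac-14 1.20%. Per kilobase of annotated exon, oac-46 led with 13.9 ± 2.44 CPM per kb, followed by oac-59 with 8.89 ± 1.82, oac-9 with 5.86 ± 0.92 and oac-20 with 3.31 ± 0.38. The next in order, oac-54 with 2.99 ± 0.80 CPM per kb, did not differ from oac-20 beyond its spread. In every control group oac-46 kept the first place, with 20.9 to 26.6 CPM per kb.

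In the ethanol groups the first place passed to oac-14. At 1 h its level was 17.4 ± 1.07 CPM per kb against 11.2 ± 1.41 for oac-46 (SD, n = 3). At 4 h the level of oac-14 was 76.1 ± 12.97 CPM per kb and that of oac-46 8.26 ± 1.51, and at 20 h 474 ± 194 and 8.51 ± 0.36. Among 13622 tested genes with an exon length in WBcel235, oac-14 stood at rank 11977 by CPM per kb at time zero and at rank 186 at 20 h in ethanol. Its share of all oac counts in ethanol was 27.6%, 69.4% and 92.8% at 1, 4 and 20 h, against 7.39%, 2.58% and 1.82% in the controls.

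**Figure D1:**
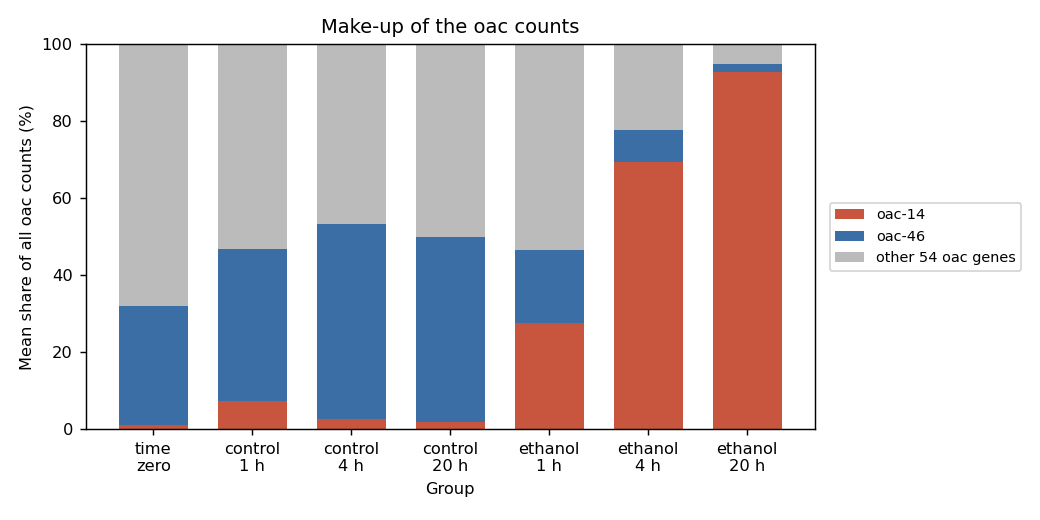
Mean share of all oac counts in each group (%, n = 4 at time zero and 3 elsewhere) taken by oac-14, by oac-46 and by the other members, as stacked bars that sum to 100. The share of oac-14 runs from 1.20% at time zero to 92.8% at 20 h in ethanol, while that of oac-46 is 48.0% at 20 h in the control and 1.96% in ethanol.

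oac-14 was measured in each library as follows. At time zero it had 0.931, 1.68, 0.900 and 1.62 CPM. The 1 h controls had 9.50, 8.03 and 10.9 CPM, and the 1 h ethanol libraries 40.6, 36.2 and 40.1. Every ethanol library was thus above every control, and every 1 h control was in turn above every time zero library. At 4 h the controls had 3.05, 1.58 and 3.09 CPM and the ethanol libraries 185, 137 and 189. At 20 h the controls had 3.82, 1.63 and 1.87 CPM and the ethanol libraries 757, 1559 and 869.7. The ethanol libraries at 20 h differed among themselves by more than those of the other times, and the lowest of them was still far above all controls.

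The ethanol effect on oac-14, as a log2 fold change against the control of the same time, had log2 values of 2.03 ± 0.30, 6.05 ± 0.36 and 8.76 ± 0.40 at 1, 4 and 20 h (SE; edgeR quasi-likelihood test, adjusted p = 0.000113, 1.06e-10 and 8.36e-13). The effect grew with time: it was larger by 4.02 ± 0.44 on the log2 scale at 4 h than at 1 h (adjusted p = 2.31e-06) and by 2.71 ± 0.46 at 20 h than at 4 h (adjusted p = 9.67e-05). Among the 15310 genes tested, this gene ranked 306 by size of rise at 1 h, 35 at 4 h and 14 at 20 h. Against time zero its log2 fold change in ethanol was 4.89 ± 0.32, 7.02 ± 0.34 and 9.65 ± 0.37 at the same times, the last an 805-fold difference and rank 7. The labels call the libraries biological replicates without saying whether they came from separate cultures, so the spread behind every p-value is that between libraries and may be technical.

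**Figure D2:**
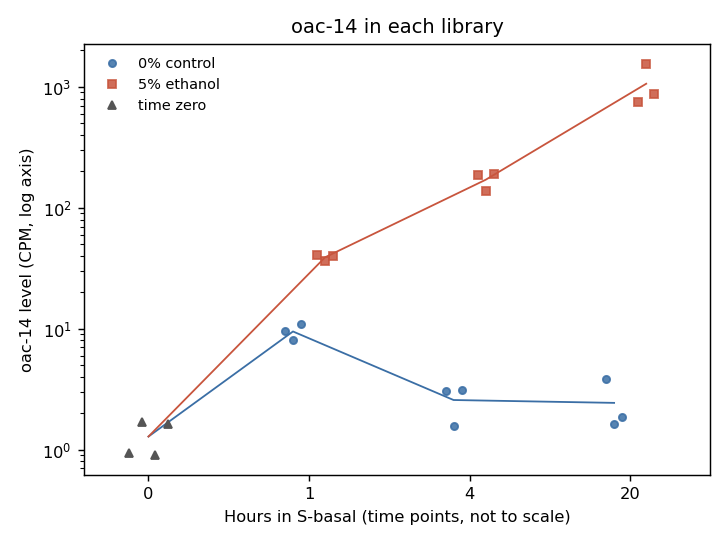
CPM of oac-14 in each library on a log10 axis against hours in buffer, with points for libraries and lines through the group means. The ethanol libraries lie above the controls at every time, and reach 757 to 1559 CPM at 20 h while the controls stay between 1.63 and 3.82.

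The coding genes beside oac-14 on chromosome X, in the WBcel235 annotation, had smaller changes or none called. moc-1 was not called at 1 or 4 h and was higher at 20 h, with a log2 fold change of 0.74 ± 0.19 (adjusted p = 0.00311). unc-115 was likewise not called at 1 or 4 h and was lower at 20 h, by a log2 fold change of -1.06 ± 0.26 (adjusted p = 0.00183).

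At 1 h, ethanol changed 3 of the 25 tested members, in a comparison that called 6.67% of all genes. The 2 that were higher, where 4.94% of all tested genes were called higher, were oac-14 and oac-31, and the 1 that was lower, where 1.72% of all genes were, was oac-46. oac-31 had 1.37, 2.60 and 1.65 CPM in the controls and 11.4, 13.1 and 11.1 in ethanol, with no overlap. Its log2 fold change was 2.69 ± 0.37 (adjusted p = 5.03e-05). It was not called at 4 or 20 h. At 4 h its controls had 0.610 to 1.72 CPM and its ethanol libraries 0.653 to 0.764, and the effect at 4 h differed from that at 1 h by -3.44 ± 0.59 on the log2 scale (adjusted p = 0.000377).

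oac-46, the most abundant member before exposure, had 41.9, 55.5 and 54.8 CPM in the 1 h controls and 23.4, 30.2 and 27.05 in ethanol. All ethanol libraries were below all controls, and the log2 fold change was -0.92 ± 0.18 (adjusted p = 0.00177). Counting libraries alone, the ethanol values lay wholly above the controls in 7 members (11.2% of all genes) and wholly below in 6 (7.73%). The median log2 fold change of the 25 members was 0.02, against -0.01 over all genes tested. Without ethanol replicate 2, 2 members were lower at 1 h. Without the 6 libraries with scores above 10, 4 members were higher and 2 lower at 1 h, where 6.67% and 3.4% of all genes were. oac-3, with a log2 fold change of 2.94, and oac-6, with 0.66, joined those that were higher (adjusted p = 0.0317 and 0.0421), and oac-34 joined those that were lower (adjusted p = 0.0228), with 0 and 0 counts in the ethanol libraries left in that fit and 8 and 8 in the controls. With all libraries oac-34 was not called at 1 h, and had 0, 3 and 0 counts in ethanol and 8, 4 and 8 in the controls.

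At 4 h, 14 of the 25 members were called, against 30.5% of all genes. The 6 that were higher (17.1% of all genes were) were oac-14, oac-3, oac-51, oac-7, oac-57 and oac-6. oac-7 had 0.871, 0.824 and 1.83 CPM in the controls and 3.03, 3.82 and 4.25 in ethanol. oac-57 had 4.97, 4.53 and 5.62 CPM in the controls and 11.8, 8.27 and 13.6 in ethanol. oac-6 had 0.871, 0.961 and 0.773 CPM in the controls and 1.55, 2.01 and 1.80 in ethanol. In all of these the ethanol libraries lay wholly above the controls, and the log2 fold changes were 1.64 ± 0.37 for oac-7, 1.15 ± 0.28 for oac-57 and 1.04 ± 0.32 for oac-6 (adjusted p = 0.0019, 0.00358 and 0.0184). The call of oac-6 was lost without control replicate 3 (adjusted p = 0.0726) or without ethanol replicate 2 (0.068). At time zero oac-6 stood at 1.55 ± 0.262 CPM (4 libraries, SD), above the 4 h controls.

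Of the members with few reads, oac-3 had 1, 3 and 0 counts in the 4 h controls and 25, 28 and 26 in ethanol, a log2 fold change of 4.19 ± 0.72 (adjusted p = 0.000134). oac-51 had 1 count in the 3 controls together and 8 in ethanol, a ratio of 8.03 with an exact 95% interval of 1.08 to 356 that covers counting error only. This call of oac-51 (adjusted p = 0.0428) was lost with DESeq2 (adjusted p = 0.0804) and in the absence of any 1 of the ethanol libraries (adjusted p = 0.0504 to 0.106), so that its direction at 4 h rests on a few reads.

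The 8 that were lower at 4 h (13.4% of all genes were) were oac-5, oac-22, oac-53, oac-29, oac-54, oac-34, oac-32 and oac-46. oac-54 had 4.62, 7.55 and 5.90 CPM in the controls and 1.11, 1.11 and 0.735 in ethanol. Its log2 fold change was -2.60 ± 0.39 (adjusted p = 2.48e-05), with no overlap. oac-34 had 2.09, 1.72 and 1.27 CPM in the controls and 0.444, 0.278 and 0.327 in ethanol. Its log2 fold change was -2.24 ± 0.62 (adjusted p = 0.00901). At time zero oac-34 stood at 0.096 ± 0.082 CPM (4 libraries, SD), so it was lower than a control that had risen. oac-46 had 54.2, 46.4 and 50.1 CPM in the controls and 23.3, 20.3 and 16.1 in ethanol, and its log2 fold change was -1.33 ± 0.18 (adjusted p = 7.2e-06). In both genes every ethanol library was below every control.

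The other members that were lower than the control at 4 h were sparse. oac-5 had 45 counts in the controls and 0 in ethanol, which makes it at least 14.95-fold lower, taking a floor of 3 counts over the group. It had 0 counts at time zero as well. oac-22 had 36 counts in the controls and 1 in ethanol, a ratio of 35.9 (exact 95% interval 6.04 to 1456, counting error only). oac-53, oac-29 and oac-32 had log2 fold changes of -3.51 ± 0.63, -3.25 ± 0.75 and -2.03 ± 0.64 (adjusted p = 0.000187, 0.00208 and 0.0195). That of oac-32 lost its call when control replicate 2 or 3 or ethanol replicate 3 was left out (adjusted p = 0.0684 to 0.0814). The ethanol libraries lay wholly above the controls in 10 members (28.0% of all genes) and wholly below in 9 (26.3%), and the median log2 fold change of the members was -0.31 against 0.00 over all genes.

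At 20 h, 17 of the 25 members were called, in a comparison that called 53.2% of all genes. The 8 that were higher (25.0% of all genes were) were oac-14, oac-3, oac-9, oac-57, oac-34, oac-6, oac-23 and oac-19. oac-9 had 0.840, 0.424 and 0.325 CPM in the controls and 5.55, 2.30 and 5.18 in ethanol. oac-57 had 2.22, 0.777 and 1.46 CPM in the controls and 10.2, 13.4 and 7.83 in ethanol. oac-34 had 2.37, 1.06 and 0.406 CPM in the controls and 10.1, 4.07 and 9.49 in ethanol. The groups did not overlap in any of these, and the log2 fold changes were 3.02 ± 0.39 for oac-9, 2.82 ± 0.32 for oac-57 and 2.62 ± 0.48 for oac-34 (adjusted p = 1.62e-06, 2.49e-07 and 0.000103).

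The rise of oac-9 at 20 h was a difference between levels that were both below time zero, when oac-9 stood at 15.0 ± 2.36 CPM (4 libraries, SD). Its mean was 0.530 ± 0.274 CPM in the 20 h controls and 4.34 ± 1.78 in ethanol (n = 3). The same held for oac-19 and oac-23, which rose by 1.90 ± 0.51 and 2.15 ± 0.45 on the log2 scale against the control (adjusted p = 0.00359 and 0.000437). Against time zero, oac-9, oac-19 and oac-23 in ethanol at 20 h were lower, with log2 fold changes of -1.77 ± 0.28, -1.49 ± 0.36 and -0.85 ± 0.31 (adjusted p = 2.08e-05, 0.0016 and 0.0281). That of oac-23 lost its call with DESeq2 (adjusted p = 0.0604) and without time zero replicate 1 or 3 or ethanol replicate 1 or 2 (0.0574 to 0.145). oac-57 and oac-34 were above time zero as well, with log2 fold changes of 2.76 ± 0.29 and 6.18 ± 0.62 (adjusted p = 8.52e-08 and 4.93e-08). oac-6 was higher than the control by 2.39 ± 0.40 on the log2 scale (adjusted p = 3.22e-05). It stood at 1.51 ± 0.401 CPM in ethanol and 0.278 ± 0.290 in the 20 h controls (SD, n = 3). At time zero oac-6 had 1.55 ± 0.262 CPM (n = 4), so its level in ethanol was near the starting level. oac-3 had 1 count in the 20 h controls and 46 in ethanol, a ratio of 39.8 (exact 95% interval 6.80 to 1606, counting error only).

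The 9 that were lower at 20 h (28.1% of all genes were) were led by oac-51. It had 24.5, 28.0 and 35.3 CPM in the controls and 0.0653, 0.2301 and 0.115 in ethanol, or 1152 counts against 6. The groups were far apart, and the log2 fold change was -7.69 ± 0.40 (adjusted p = 4.98e-12). This is the only one of the tested members that reached a mean above 20 CPM in the 20 h controls besides oac-46. Before exposure oac-51 was at 0.791 ± 0.159 CPM (4 libraries, SD), so the controls rose, by 5.18 ± 0.29 on the log2 scale (adjusted p = 4.64e-12), while in ethanol it was below time zero, with a log2 fold change of -2.52 ± 0.50 (adjusted p = 0.000285). Its neighbour on the chromosome, oac-52, had 2.44, 2.47 and 1.95 CPM in the 20 h controls and 0.784, 0.307 and 0.345 in ethanol. Its log2 fold change was -2.23 ± 0.42 (adjusted p = 0.00013), with no overlap.

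oac-46 had 55.9, 75.1 and 61.3 CPM in the 20 h controls and 19.6, 20.6 and 21.3 in ethanol, and its log2 fold change was -1.64 ± 0.18 (adjusted p = 1.46e-07). oac-8 had 1.15, 1.70 and 1.87 CPM in the controls and 0.653, 0.614 and 0.518 in ethanol, and its log2 fold change was -1.39 ± 0.31 (adjusted p = 0.000798). Both genes had every ethanol library below every control. oac-54 had 1.91, 2.33 and 2.76 CPM in the controls and 0.327, 1.92 and 0.863 in ethanol. Its groups overlapped by 1 library, and its log2 fold change of -1.20 ± 0.40 (adjusted p = 0.0155) lost its call without control replicate 3, ethanol replicate 1 or ethanol replicate 3 (adjusted p = 0.0521, 0.109 and 0.0704).

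Of the remaining members that were lower, oac-53 and oac-22 had log2 fold changes of -3.54 ± 0.63 and -3.25 ± 0.70 (adjusted p = 7.54e-05 and 0.000506), and oac-5 had 40 counts in the controls and 3 in ethanol, a ratio of 15.4 (exact 95% interval 4.91 to 77.9, counting error only). oac-58 had a log2 fold change of -1.66 ± 0.68 (adjusted p = 0.0462) and groups that overlapped. Its call was lost with DESeq2 (adjusted p = 0.0527) and without the libraries with scores above 10, where the log2 fold change was -0.92 (adjusted p = 0.361). The ethanol libraries lay wholly above the controls in 8 members (27.1% of all genes) and wholly below in 7 (28.4%), and the median log2 fold change was -0.11 against -0.06 over all genes.

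**Figure D3:**
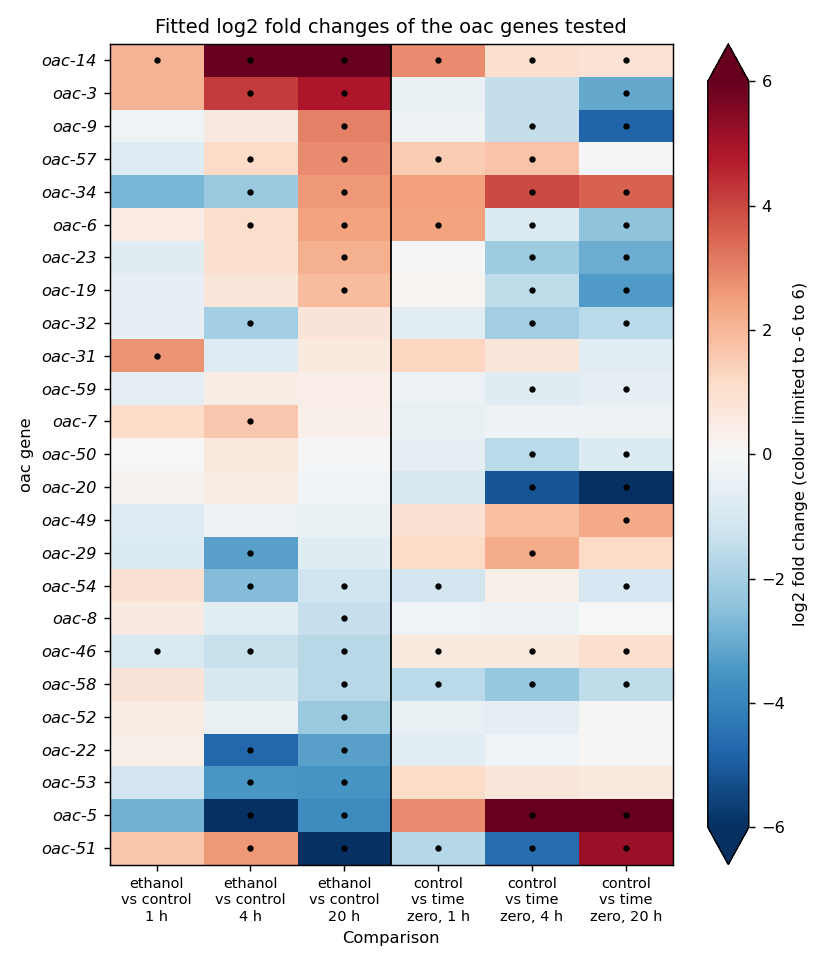
Fitted log2 fold change of each of the 25 tested members, by colour, in the 3 ethanol against control comparisons (left) and the 3 control against time zero comparisons (right), with a dot where the adjusted p was under 0.05. Colour is limited to -6 to 6, and fitted values of members with almost no counts in a group depend on the prior count. oac-14 is the member with the deepest red at 4 and 20 h on the left, and oac-46 has a dot in all 6 columns, blue on the left and light red on the right.

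Over the 3 times, 21 of the 25 members were called in at least 1 ethanol comparison, and oac-14 and oac-46 in all 3. Of all genes tested, 53.2% were called at 20 h alone. The share of all genes called in at least 1 of the comparisons was not counted, so the 21 members have no baseline here. The 4 called in none were oac-20, oac-49, oac-50 and oac-59. Of these, oac-59 was called higher in ethanol under some alternatives. Without control replicate 1 its log2 fold change at 20 h was 0.72 (edgeR, adjusted p = 0.0123). Without the libraries with scores above 10 its log2 fold changes were 0.52 at 4 h and 0.82 at 20 h (adjusted p = 0.0174 and 0.000804). With only the groups compared it was called at 4 h (0.47, adjusted p = 0.00504). oac-34 and oac-51 changed direction: oac-34 was lower at 4 h and higher at 20 h, and its effect at 20 h exceeded that at 4 h by 4.85 ± 0.78 on the log2 scale (adjusted p = 5.93e-05). The effect on oac-51 was lower at 20 h than at 4 h by a log2 difference of -10.3 ± 1.09 (adjusted p = 3.77e-07), which leans on the 1 count in the 4 h controls. A test of whether the ethanol effect differed among the times called 16 members, against 40.7% of all genes.

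The order of these changes differed between members. oac-57 was not called at 1 h, when it had 4.48 ± 0.643 CPM in the controls and 2.58 ± 0.580 in ethanol (SD, n = 3), and its effect grew from 1 to 4 h by 1.94 ± 0.42 and from 4 to 20 h by 1.67 ± 0.42 on the log2 scale (adjusted p = 0.00313 and 0.00444). oac-9 changed late, with an effect larger at 20 h than at 4 h by 2.48 ± 0.50 (adjusted p = 0.000589). oac-54 went from 2.17 ± 0.610 CPM in the 1 h controls and 4.17 ± 0.534 in ethanol, a difference that was not called, to its fall at 4 h, and its effect was lower at 4 h than at 1 h by a log2 difference of -3.51 ± 0.53 (adjusted p = 9.62e-05). For oac-46 the effect was lower at 20 h than at 1 h by a log2 difference of -0.73 ± 0.25 (adjusted p = 0.0266), while the steps from 1 to 4 h and from 4 to 20 h were not called. That difference lost its call when control replicate 1 of 1 h, control replicate 2 of 20 h, or ethanol replicate 1 or 3 of 20 h was left out (adjusted p = 0.0541 to 0.0778).

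**Figure D4:**
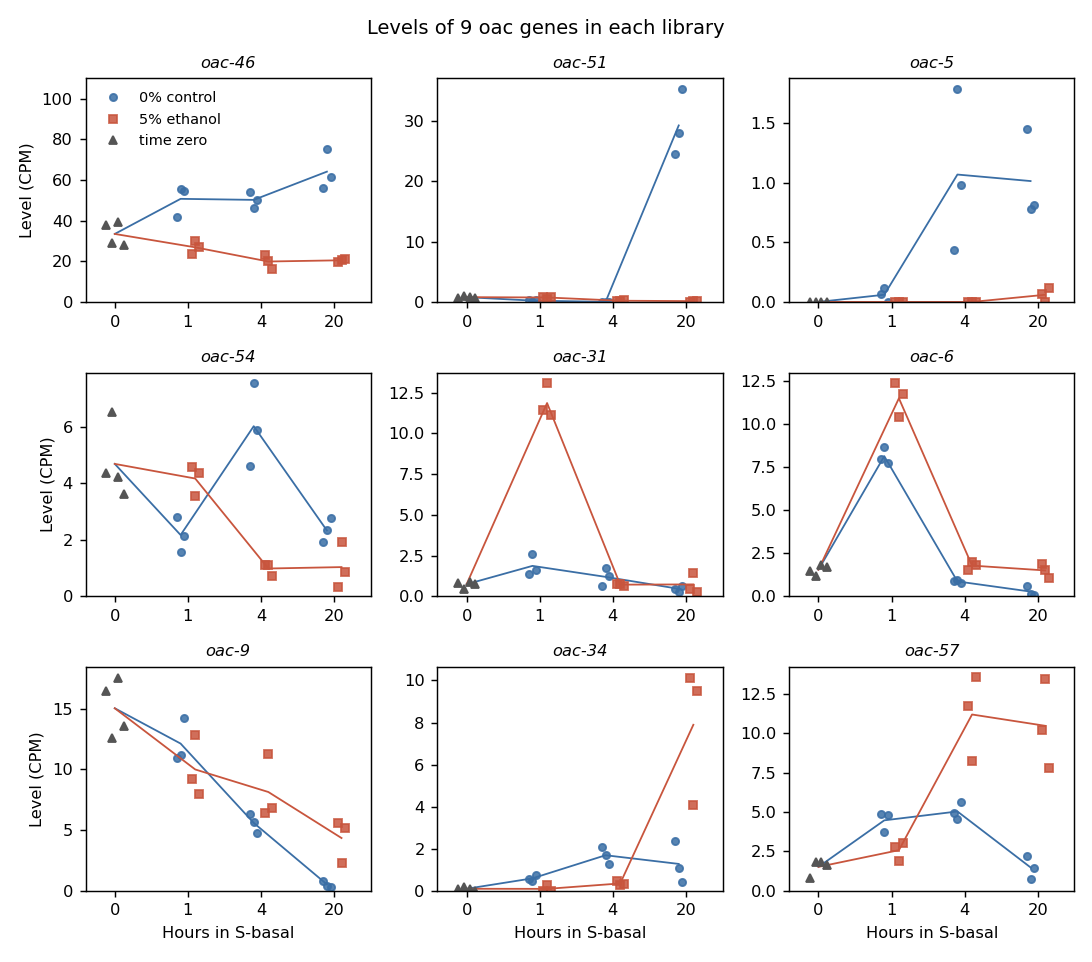
CPM in each library against hours in buffer for 9 members, with lines through the group means and a linear axis of its own in each panel. oac-31 stands apart from its control at 1 h, oac-46 lies below its control at all times, and oac-51 reaches 24.5 to 35.3 CPM in the 20 h controls and at most 0.2301 in ethanol.

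The controls in buffer without ethanol differed from time zero as well. Hours in buffer, lack of food and age of the worms differed together between these groups, so their parts cannot be told apart. The median log2 fold change of the 25 members in the controls against time zero took values of -0.23, -0.29 and -0.30 at 1, 4 and 20 h, beside 0.06, -0.06 and 0.07 over all genes. These comparisons use the same control libraries as the ethanol comparisons, so the values stand side by side and are not independent. At 1 h, 4 members were higher than at time zero (5.33% of all genes were) and 3 were lower (5.49%). oac-14, oac-6, oac-57 and oac-46 rose by 2.85 ± 0.33, 2.39 ± 0.25, 1.55 ± 0.30 and 0.60 ± 0.16 on the log2 scale (adjusted p = 3.01e-06, 1.13e-06, 0.00132 and 0.0184). oac-51, oac-58 and oac-54 had log2 fold changes of -1.73 ± 0.49, -1.62 ± 0.51 and -1.09 ± 0.34 (adjusted p = 0.0229, 0.0424 and 0.0464). Without time zero replicate 2 or control replicate 2, 0 members were called lower, and without time zero replicate 1 or 3 or control replicate 1 or 3, 1 was. The rise of oac-46 at 1 h lost its call without time zero replicate 2 or 4 or control replicate 2 or 3 (adjusted p = 0.0656 to 0.0947), and with the replicate number as a block (adjusted p = 0.112).

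At 4 h in buffer, 6 members were higher (22.9% of all genes were) and 10 lower (23.3%) than at time zero. oac-5 had 45 counts against 0, at least 18.5-fold higher, and oac-34, oac-29 and oac-57 had log2 fold changes of 3.94 ± 0.71, 2.22 ± 0.61 and 1.71 ± 0.30 (adjusted p = 0.000145, 0.00548 and 9.54e-05). oac-20 had the clearest fall, from 6.33, 7.59, 8.19 and 8.12 CPM to 0, 0.137 and 0.422, a log2 fold change of -5.20 ± 0.50 (adjusted p = 5.94e-08). oac-51 had 1 count against 40, a ratio of 32.4 (exact 95% interval 5.50 to 1313, counting error only), and oac-58 and oac-23 had log2 fold changes of -2.27 ± 0.53 and -2.16 ± 0.37 (adjusted p = 0.0015 and 8.83e-05).

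At 20 h in buffer, 6 members were higher (30.8% of all genes were) and 11 lower (24.4%) than at time zero. Beside oac-51, oac-5 was at least 16.7-fold higher, and oac-34 and oac-49 had log2 fold changes of 3.56 ± 0.74 and 2.26 ± 0.72 (adjusted p = 0.000319 and 0.0107). oac-20 had 1 count left against 377, a ratio of 300.3 (exact 95% interval 53.6 to 11893, counting error only). oac-9, oac-19 and oac-23 had log2 fold changes of -4.80 ± 0.37, -3.40 ± 0.45 and -2.999 ± 0.41 (adjusted p = 6.23e-10, 1.65e-06 and 2.65e-06). oac-20 fell in ethanol too: at 20 h it had 1 count in ethanol and 1 in the control, so its loss from time zero accompanied both treatments. oac-50 and oac-59 were also lower than at time zero in the 4 and 20 h controls, and neither was called against control in the joint fit of all 22 libraries. Without time zero replicate 2, 7 members were lower at 20 h, and the calls of oac-50 and oac-59 were among those lost (adjusted p = 0.0629 and 0.114).

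Set against time zero rather than the control, ethanol at 1 h left 3 members higher (7.13% of all genes were) and 1 lower (3.47%). These were oac-14, oac-31 and oac-6, with log2 fold changes of 4.89 ± 0.32, 4.00 ± 0.37 and 2.90 ± 0.25, and oac-59, with -0.92 ± 0.23 (adjusted p = 5.92e-10, 1.04e-07, 4.02e-08 and 0.00921). Without ethanol replicate 2, 0 members were lower, and without time zero replicate 1, 2 were. At 4 h, 4 were higher (19.7%) and 13 lower (19.5%), and at 20 h 5 were higher (26.5%) and 13 lower (26.6%). The 5 that were higher at 20 h were oac-14, oac-34, oac-57, oac-49 and oac-3. Leaving out ethanol replicate 1 ended the call of oac-3 (adjusted p = 0.0959). The call of oac-49 was lost without time zero replicate 1, 3 or 4 or ethanol replicate 2 or 3 (0.0514 to 0.168). oac-46, higher than time zero in each control group, was lower than time zero in ethanol at 4 h and 20 h, with log2 fold changes of -0.75 ± 0.17 and -0.71 ± 0.17 (adjusted p = 0.00131 and 0.00143).

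Members that stand side by side were called as follows. In 4 of the 9 runs at least 2 members were tested. oac-51 and oac-52 both fell at 20 h. oac-57 rose at 4 and 20 h, while beside it oac-58 fell at 20 h and oac-59 was not called. oac-31 rose at 1 h and was not called at 4 h, while oac-32 fell at 4 h. oac-23 was higher than the control at 20 h, and oac-22 was lower at 4 and 20 h.

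Some counts of the family may hold reads of other genes. No source used here says whether reads were counted by strand or how reads that map to several places were treated, so reads of a member and of an overlapping gene, or of a near-identical relative, cannot be told apart. Coding genes overlap 4 of the tested members: agxt-1 overlaps oac-46, C42C1.8 overlaps oac-59, fbxa-99 overlaps oac-20 and C43F9.4 overlaps oac-8. Noncoding genes of the count table overlap oac-49, oac-50, oac-52, oac-57 and oac-58, among them W03B1.16 at oac-52 and K09E10.5 at oac-57. C42C1.8 had 4203 to 6017 counts in each control or ethanol group and was not called in any ethanol comparison, and fbxa-99 was not called either. C43F9.4 had at most 10 counts in a control or ethanol group. agxt-1 was not analysed here.

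The named relatives outside the numbered family were measured as well. The level of nrf-6 before exposure was 337 ± 45.6 CPM (SD, n = 4), and it was 129 ± 9.54 in the 4 h controls and 42.7 ± 2.71 in ethanol at 4 h (n = 3), a log2 fold change of -1.60 ± 0.19 (adjusted p = 1.59e-06). At 20 h it was higher in ethanol, with a log2 fold change of 0.56 ± 0.19 (adjusted p = 0.0147), a call lost without control replicate 2 or 3 (adjusted p = 0.0614 and 0.0866). ndg-4 fell with it at 4 h, from 45.9 ± 2.81 CPM in the controls to 17.3 ± 0.452 in ethanol, a log2 fold change of -1.41 ± 0.13 (adjusted p = 4.09e-08). At 1 h ndg-4 was higher by 0.43 ± 0.13 (adjusted p = 0.0408), a call lost without any 1 of the controls (adjusted p = 0.0941 to 0.176), and nrf-6 was not called. The yolk markers beside them summed to 34193 to 54093 CPM in ethanol at 4 h against 61208 to 69447 in the controls, with 1 of 6 genes higher and 0 lower (17.1% and 13.4% of all genes). Their part in the result was not tested.

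rhy-1, which lies beside oac-54 on chromosome II and on the same strand, was not called in any ethanol comparison. Its level was 9.45 ± 0.468 CPM in the 4 h controls and 6.19 ± 1.32 in ethanol (SD, n = 3), at the time when oac-54 fell. nrf-5, a lipid-binding protein of the same fluoxetine response as nrf-6, was not called against the control at any time, with 68.3 to 99.9 CPM in the ethanol groups and 80.7 to 104 in the controls. bus-1 was not tested. Of 5 genes of the hypoxia pathway (hif-1 itself, egl-9, vhl-1 and cysl-1, which act on HIF-1, and cysl-2, a target of it), 0 were called at 1 h (6.67% of all genes were). At 4 h 1 was higher (cysl-2) and 0 were lower (17.1% and 13.4% of all genes were). At 20 h 0 were higher and 4 were lower, all but vhl-1 (25.0% and 28.1% of all genes). Against time zero, 2 of the 5 were higher and 0 lower in the 20 h controls (30.8% and 24.4% of all genes), and 0 were higher and 3 lower in ethanol at 20 h (26.5% and 26.6%). egl-9 had 31.6 ± 6.66 CPM at time zero (n = 4), 155 ± 12.2 in the 20 h controls and 34.4 ± 29.0 in ethanol (n = 3).

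Acyltransferases of other families were taken for comparison, as a list of 22 genes of which 21 were tested. At 1 h 2 were higher and 0 lower, where 4.94% and 1.72% of all genes were. At 4 h 3 were higher and 6 lower (17.1% and 13.4% of all genes). At 20 h 6 were higher and 3 lower (25.0% and 28.1% of all genes). acl-12, of the family that acylates lysophospholipids or glycerol phosphate, rose at all 3 times, with log2 fold changes of 1.29 ± 0.15, 3.26 ± 0.16 and 2.22 ± 0.16 (adjusted p = 6.97e-06, 1.01e-11 and 3.01e-10). mboa-1, a membrane-bound acyltransferase, was lower at 4 and 20 h, with log2 fold changes of -1.79 ± 0.28 and -4.54 ± 0.27 (adjusted p = 4.46e-05 and 2.95e-11). In neither gene did the change reach that of oac-14 at 4 or 20 h.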

How the data were processed

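Whole-worm polyA libraries were made with the Kapa mRNA HyperPrep kit, per the labels' protocols. The authors deposited whole-number counts of reads per gene, with 22 columns, each matched to 1 sample. Per the submitters' processing notes, the tools were STAR 2.7.9a, Trimmomatic 0.39, fastp 0.23.2, Subread 2.0.3 and featureCounts, and the genome build was ce10. Annotation, strand setting and the treatment of multiply mapping reads: not given in the sources used here. Chromosomes, coding lengths and neighbours come from WBcel235, another build, so no coordinates are given.

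Group means were estimated by edgeR 4.0.16 in R 4.3.3 from all 22 libraries jointly (TMM scaling, filterByExpr over the 7 groups with a minimum count of 10 and a minimum total of 15, robust quasi-likelihood F-tests, two-sided). P-values were adjusted by Benjamini-Hochberg over all 15310 genes tested, and an adjusted p under 0.05 was a call. SE is the log2 fold change divided by the square root of F. CPM are the deposited counts scaled by TMM-adjusted library sizes. A group at 0 was given a floor of 3 counts (summed over its libraries) in a fold, and ratios with 1 to 3 counts have an exact 95% interval; both cover counting error only. The members and lists were chosen with earlier results of these data known.

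Every tested member is named. Values in every library are given for the 4 largest rises and falls of each ethanol comparison among called members with at least 10 counts in both groups. Neighbours of oac-14, and calls lost when libraries were left out, were added after values were seen. No libraries were identical, and members of a group differed beyond counting noise (chi-square per df 2.02 to 117), so each library counted as 1 replicate. The fit was tested on simulated data with known changes, among 14810 genes for ethanol against control at 4 h. There 35.7% of 98 genes with a log2 change of 1 were recovered, and 83.8% of 99 genes with a log2 change of 2. All other genes were simulated without a change, while in the real data 30.5% of genes were called at 4 h.

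Alternatives were DESeq2 1.42.0, limma-voom (limma 3.58.1), a minimum log2 fold change of 1, a replicate block, other scaling, no filter or a filter at 50 counts, only the groups compared, and each library left out. Chosen after the data were seen: leaving out the 6 libraries that scored above 10 on the first component of the deviations from group means, and leaving out in each group the library with the score farthest from the median.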

Additional observations from a re-analysis of the deposited data

Results flagged for a closer look

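The ethanol effect, as a log2 fold change against the control of the same time, differed among 1, 4 and 20 h in 16 of the 25 tested members, where 40.7% of all genes tested did (edgeR quasi-likelihood F-test with 2 degrees of freedom, adjusted over all genes). The smallest adjusted p-values were those of oac-51 (1.11e-09), whose effect was higher at 4 h on 1 control count and lower at 20 h, and of oac-14 (2.00e-09), whose effect grew at each step. oac-57 (6.13e-06), oac-34 (3.35e-05), oac-9 (5.22e-05) and oac-54 (6.49e-05) followed. oac-31, called higher at 1 h, had an adjusted p of 0.000237. Those of oac-23, oac-22, oac-52 and oac-8 were 0.00100, 0.00102, 0.00217 and 0.00288. Those of oac-6, oac-19, oac-32 and oac-53 were 0.00921, 0.0108, 0.0152 and 0.0163. oac-59, called in no single ethanol comparison, had 0.0273, and this call was lost when control replicate 1 or 3 or ethanol replicate 2 of 1 h was left out (adjusted p = 0.0579, 0.0638 and 0.108). That of oac-53 was lost without ethanol replicate 2 at 1 h (adjusted p = 0.0598).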

How the results depend on the processing

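No called fold change of a member changed sign under the alternatives run. The balance of members higher against lower did turn or level. At 20 h against control (8 and 9) it was 5 and 3 with a filter at 50 counts, 8 and 6 with a log2 fold change of 1 required, 10 and 8 without either set of libraries chosen by score, and 8 and 8 with DESeq2, limma-voom, library sizes alone or the replicate block. Of all genes, 24.2% were higher and 26.7% lower with that filter, and 12.8% and 15% with that fold. Without the libraries chosen by score, 26.4% or 29.5% were higher and 28.4% or 29.7% lower. In the last fits named, 23.6% to 28.1% were higher and 24.2% to 28.2% lower. At 4 h (6 and 8) it was 4 and 3 with the filter at 50 counts (17.6% and 13.7% of all genes) and 7 and 4 with only the groups compared (27.1% and 20.5%). Given as ethanol against control at 1, 4 and 20 h, control against time zero (1, 4, 20 h), ethanol against time zero (1, 4, 20 h) and the difference of the ethanol effect among times, leaving out 1 library gave these ranges of members called. Higher against control: 2 to 3, 4 to 6 and 8 to 10; lower: 1 to 2, 7 to 8 and 8 to 10. Higher in control against time zero: 3 to 5, 5 to 7 and 5 to 8; lower: 0 to 3, 9 to 10 and 7 to 11. Higher in ethanol against time zero: 3 to 3, 4 to 5 and 4 to 5; lower: 0 to 2, 10 to 13 and 11 to 14; differing among times, 15 to 17. The share of all genes called was not counted with 1 library left out, so these ranges have no baseline here. A filter at 50 counts, which tests 11 members, gave 3 lower at 4 h and 5 higher and 3 lower at 20 h against control, 5 and 4 lower in control at 4 and 20 h, 2 higher and 5 lower at 4 h and 3 higher and 5 lower at 20 h in ethanol against time zero, and 10 differing among times. With this filter 24.2% and 24.1% of all genes were lower in control at 4 and 20 h. In ethanol against time zero 21.5% were higher and 21.1% lower at 4 h, and 28.5% and 27.8% at 20 h. With no filter, 14 were lower at 20 h against control (18.4% of all genes were), among them oac-16 and oac-48. Fitting only the groups compared, where 16 to 18 members passed the filter against control and 19 or 20 in control against time zero, gave 4 lower at 4 h (20.5% of all genes) and 5 higher at 20 h (18.4%) against control, 3 higher in control at 20 h (27%), and 3 lower at 1 h (3.89%) and 3 higher at 20 h (26.5%) in ethanol against time zero. Requiring a log2 fold change of 1 gave 0 lower at 1 h (0.261% of all genes) and 2 higher and 5 lower at 4 h (4.86% and 4.25%) against control; 2 higher and 0 lower (1.1% and 0.836%), 3 and 5 (5.08% and 7.56%), and 3 and 5 (15.7% and 15.1%) in control; and 0 lower at 1 h (0.346%), 6 lower at 4 h (5.93%), and 3 higher and 8 lower at 20 h (8.64% and 12.1%) in ethanol against time zero. It was not run for the difference among times. Without the 6 libraries with scores above 10, or without the farthest library of each group, 4 or 5 were higher and 2 lower at 1 h against control (6.67% or 20.7% of all genes were higher and 3.4% or 22.9% lower), 1 or 5 lower in control at 1 h (7.56% or 13.5%), and 3 lower in ethanol against time zero at 1 h (6.23% or 9.2%). That last count was also 3 with DESeq2 (5.25% of all genes), and 2 with RLE or upper-quartile factors (4.13% or 4.04%). Library sizes alone moved the median of all genes by 0.16 at 20 h and by 0.11 for control at 4 h (log2). Same-numbered samples correlated over 0.1 in 16 of 63 pairs (range -0.65 to 0.62), so the numbers did not pair the samples throughout. Between control and ethanol the correlations of replicates 1, 2 and 3 were 0.60, 0.62 and -0.07 at 1 h. They were -0.06, -0.02 and -0.0008 at 4 h and -0.11, 0.19 and -0.36 at 20 h. With the numbers as a replicate block, 5 members were higher at 4 h and 8 lower at 20 h, against 6 and 9 (15.9% and 26.8% of all genes were with the block). No other call of a member against control changed. The block also ended the calls against time zero of oac-46 and oac-54 (control, 1 h), oac-6 (4 h), oac-14, oac-50 and oac-59 (20 h), and of oac-50 and oac-52 (ethanol, 4 h) and oac-3 and oac-50 (20 h), the differences of oac-23 and oac-59 between 1 and 4 h, and the call of ndg-4, which is no member, at 1 h against control (adjusted p = 0.0821). Other causes were not tested. Depth limits the 12 members with under 10 counts in a group.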

Other observations

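Among the members with too few counts to be tested, oac-16 had 0 counts in every library up to 4 h, 32, 5 and 15 counts in the 20 h controls, and 1, 1 and 0 counts in the 20 h ethanol libraries. oac-48 had 18, 10 and 11 counts in the 20 h controls and 1, 6 and 4 in ethanol. With no filter on low counts, both were lower in ethanol at 20 h (edgeR adjusted p = 0.000875 and 0.0158). They were chosen after their values were seen.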
